A study of Rattus norvegicus with 6 samples.

Results

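STAT factors and their feedback inhibitors were examined in cultured neonatal rat ventricular cardiomyocytes (NRVCs) given the complement fragment C3a. The 9 genes were 6 STAT factors (Stat2, Stat3, Stat4, Stat5a, Stat5b and Stat6) and 3 feedback inhibitors (Socs1, Socs3 and Cish), of 16575 genes with a named probe measured on all arrays. They were found through the accession that the array design gives each probe, and the probe with the highest mean signal stood for the gene. Ventricular cells came from the hearts of 8 to 10 Sprague-Dawley rats aged 1 to 2 days and were cultured in serum-free Ultraculture medium. The methods add 1 h in 1% serum before C3a. The C3a group (3 arrays) received recombinant C3a protein at 0.5 µg/ml for 12 h, and the control group (3 arrays) was cultured without it. The labels do not say whether the 3 replicates were separate cell preparations, so the p-values measure the spread between these arrays, which may be technical.

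A cytokine or growth hormone receptor carries JAK kinases, which phosphorylate STAT proteins in the cytoplasm. Phosphorylated STATs pair, enter the nucleus and bind DNA, and among the genes they switch on are Socs1, Socs3 and Cish, whose products block the same receptors and kinases. In the heart the pathway is best known through the interleukin-6 family, whose shared receptor gp130 activates STAT3 in cardiomyocytes. An array of messenger RNA measures neither STAT phosphorylation nor STAT protein.

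All values are log2 intensities minus the 75th percentile of that array's probes, and a difference is C3a minus control on that scale. A probe was kept for testing where, in one group or both, the scanner called all 3 arrays well above background. Control replicate 1 stood apart, with 38.6% of probes well above background against 53.7% to 57.3% on the other arrays. All arrays lay on 1 slide, the controls in one column and the C3a arrays in the other, and column and treatment cannot be told apart. Cardiomyocyte markers were well above background on all arrays for 6 of 6 genes, and their summed linear level was 2127 to 2770 in the controls and 2653 to 2987 with C3a. By value Tnnt2 (0.21), Myh6 (0.22) and Tnni3 (0.13) lay higher and Actn2 (-0.30), Ryr2 (-0.11) and Nppa (-0.09) lower, with a median of 0.02, and Actn2 had an unadjusted limma p of 0.162, or 0.0148 with the replicate number as a block. The summed level of 6 fibroblast markers was 90.1 to 103.8 and 90.2 to 105.8, and that of 5 endothelial markers 33.1 to 45.9 and 42.2 to 53.4. The brightest genes carry most of each sum, Col1a1 and Col1a2 among the fibroblast and Vwf and Kdr among the endothelial markers. By value Vwf (0.24), Kdr (0.14), Cdh5 (0.26) and Pecam1 (0.06) lay higher and Tek (-0.23) lower. The part of other cell types in the results below was not tested, and in a bulk culture fewer cells of a type and less RNA per cell cannot be told apart. Of 5 markers of T and NK lymphocytes, 3 (Cd3e, Cd3g and Cd247) were well above background on no array, and the same held for 2 (Cd163 and C1qa) of 6 macrophage markers. Il2rb, the interleukin-2 receptor beta chain on the lymphocyte list, was well above background on 1 control and 3 C3a arrays, with a difference of 0.69 and an unadjusted limma p of 0.0247 (0.0347 with the block). Il2rb passed the filter only through the C3a group, where it read higher. Of the macrophage list, Cd68 was well above background on all 6 arrays (-0.16) and Csf1r on 2 control and 3 C3a arrays (0.41).

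Of the 9 genes, 5 (Stat2, Stat3, Stat5a, Stat5b and Socs3) were well above background on all 6 arrays. Stat6 and Cish were so on every array but control replicate 1, Socs1 on control replicate 3 alone, and Stat4 on no array. Stat6 and Cish thus passed the filter only through the C3a group, where they read higher. Their p-values are given as description and not as support for a change. With C3a, 6 of the 7 genes with a kept probe lay higher by value and Stat5b lay lower. These differences ran from -0.15 to 0.29, and limma gave adjusted p-values of 0.745 to 0.775. No gene of the 7 passed an unadjusted p of 0.05 in either direction, where 2.92% of the 10390 named genes with a kept probe passed it as higher and 2.46% as lower. No probe on the array passed an adjusted p of 0.05, a share of 0%, while 786 probes (3.35%) were higher and 587 (2.5%) lower at an unadjusted p of 0.05. That split depended on the scaling, with 567 higher and 726 lower for a percentile limited to probes detected on every array, and 41 and 2556 with arrays left unnormalized. The median of the 7 differences was 0.15, beside 0.04 over all named genes with a kept probe. Over the genes of the 7 that were well above background on all 6 arrays it was 0.11. A difference above 0 was found for 60.5% of those named genes, and 23.4% were higher in all 3 pairs of equal replicate number, as 6 of the 7 genes were. These directions hold relative to the 75th percentile: without normalization between arrays the median over all kept probes moved from 0.05 to -0.28, and with the arrays' spike-in RNA as the scale to -0.40, and all 7 differences were then below 0.

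**Figure D1:**
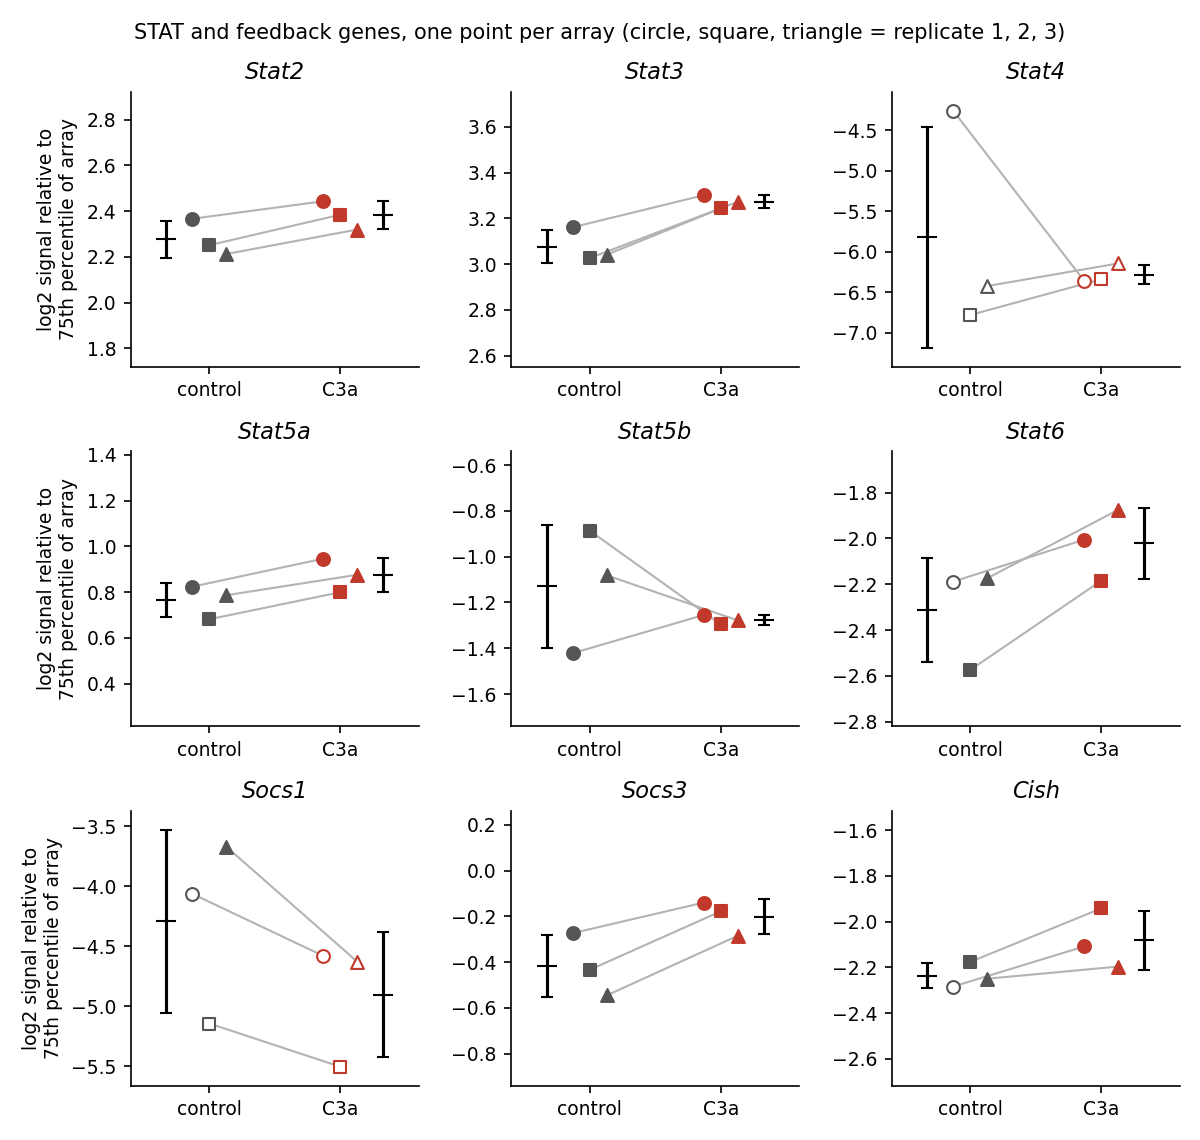
Log2 signal minus the array's 75th percentile for each of the 9 genes, with 1 point per array, grey lines joining arrays of equal replicate number, and the mean with its SD beside each group (n = 3). Hollow points mark arrays on which the probe was not well above background. Stat3 is the one gene whose 3 C3a arrays lie above all 3 controls, and its mean difference turns negative (-0.13) without normalization between arrays.

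Stat3, the STAT of the interleukin-6 family, had a bright probe. It read 3.16, 3.03 and 3.04 on control replicates 1 to 3 and 3.30, 3.24 and 3.27 on C3a replicates 1 to 3. All 3 C3a arrays lay above all 3 controls, by a gap smaller than the range from the lowest to the highest control. Among named genes with a kept probe 8.09% had this order. The means were 3.08 ± 0.074 and 3.27 ± 0.029 (SD, n = 3), a difference of 0.20 (95% confidence interval -0.02 to 0.41) or 1.15-fold (0.988 to 1.33). In limma the unadjusted p was 0.0669 and the adjusted p 0.745. On the same values the methods' t-test gave an unadjusted p of 0.0127, and limma with a variance trend 0.0277. Both lost it after Benjamini-Hochberg adjustment. As scanned, before any scaling, the Stat3 intensities were 2439, 2993 and 2218 in the controls and 2270, 2727 and 2002 with C3a, so that each C3a array was dimmer than the control of equal number. The scaled order thus rests on normalization between arrays. Here it was division by the 75th percentile, which was 272.6, 367.3 and 269.3 in the controls and 230.3, 287.8 and 207.1 with C3a. The Stat3 difference was also above 0 with quantile normalization (0.15, unadjusted limma p 0.0654). With the percentile limited to probes detected on every array it was 0.17 (unadjusted limma p 0.0704).

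Stat2, which joins Irf9 in the complex that answers type I interferon, read 2.37, 2.25 and 2.21 in the controls and 2.44, 2.38 and 2.32 with C3a. The groups overlapped, since control replicate 1 lay above C3a replicate 3. The difference was 0.11 (-0.12 to 0.33), with a limma adjusted p of 0.761. Within the pairs of equal number it was 0.08, 0.13 and 0.11.

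Stat5a and Stat5b encode closely related proteins that act behind growth hormone and prolactin receptors, and in the GRCr8 gene table Stat5b, Stat5a and Stat3 are direct neighbours on chromosome 10. Stat5a read 0.82, 0.68 and 0.79 in the controls and 0.95, 0.80 and 0.88 with C3a. The groups overlapped, and each C3a array lay above the control of equal number. The Stat5a difference was 0.11 (-0.11 to 0.33), with a limma adjusted p of 0.761, and 0.07 without control replicate 2.

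Stat5b had another pattern, with a wide spread among the controls and a narrow one with C3a. It read -1.42, -0.89 and -1.08 in the controls and -1.25, -1.30 and -1.28 with C3a. Control replicate 1 lay below every C3a array and the other controls lay above every one. The Stat5b difference was -0.15 (-0.49 to 0.19) with a limma adjusted p of 0.775. Without control replicate 1 it was -0.29 with an unadjusted limma p of 0.0484 and an adjusted p of 0.676, and without control replicate 2 it was -0.02. With normexp background correction it was -0.06. Within-group SDs were 0.27 in the controls and 0.021 with C3a (n = 3). Whether the 2 Stat5 genes differed in their response was not tested.

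Stat6 acts behind the receptors of interleukin-4 and interleukin-13. Its probe read -2.19, -2.57 and -2.17 in the controls and -2.005, -2.18 and -1.87 with C3a. The groups overlapped, because C3a replicate 2 lay below control replicate 3, and the reading on control replicate 1 was not well above background. The difference was 0.29 (-0.05 to 0.63) with an unadjusted limma p of 0.0862 and an adjusted p of 0.745. It was 0.18, 0.39 and 0.30 within pairs of equal number, and with the replicate number as a block the unadjusted p was 0.0232 and the adjusted p 0.301. With that block 5.78% of named genes were higher and 6.06% lower at an unadjusted p of 0.05, and no probe (0%) had an adjusted p under 0.05. The Stat6 difference was 0.16 without control replicate 2.

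Stat4, known from interleukin-12 signalling in lymphocytes, gave scanned intensities of 14.2, 3.34 and 3.13 in the controls and 2.80, 3.55 and 2.92 with C3a. None was well above background, and the one higher reading came from control replicate 1, whose median local background was 47 against 23 or 24 elsewhere. The Stat4 values therefore have no order between the groups.

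**Figure D2:**
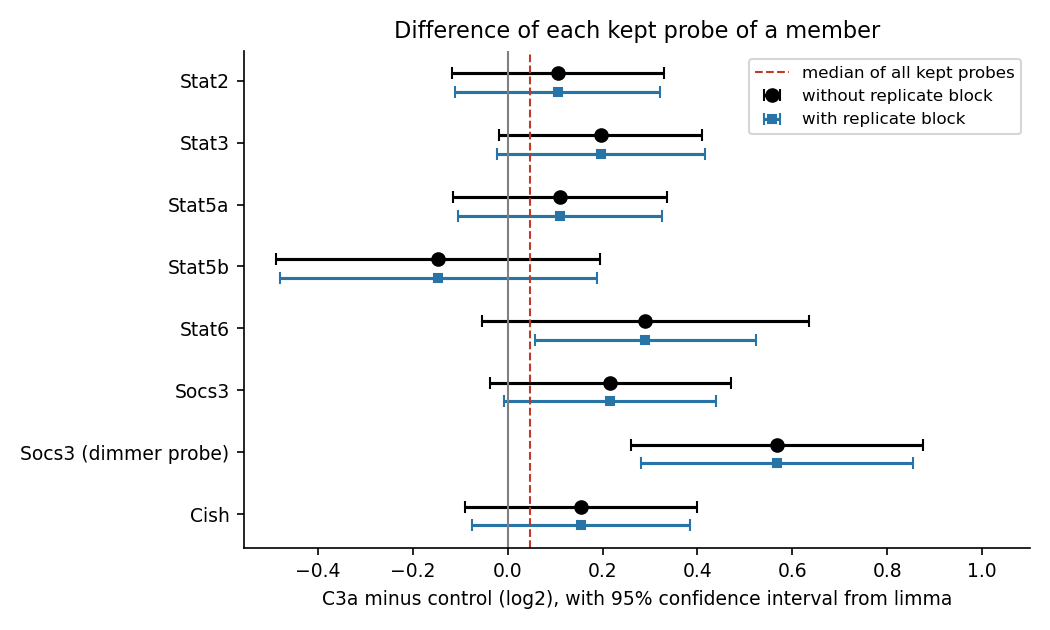
C3a minus control (log2) with its 95% confidence interval from limma for the 7 genes with a kept probe and for the dimmer of the Socs3 probes (n = 3 arrays a group). Black circles are without and blue squares with the replicate number as a block, and the dashed line is the median of all kept probes, 0.05. The black interval leaves out 0 for the dimmer Socs3 probe alone, and the blue one also for Stat6. Both of these probes passed the filter only through the C3a group. Positive differences are relative to the 75th percentile, and those of the 7 genes turn negative without normalization between arrays.

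Socs3 binds gp130 and JAK kinases and shuts off STAT3 signalling. It had a pair of probes. The brighter one, designed against a predicted transcript, was printed at 10 spots an array and stood for the gene. It read -0.27, -0.43 and -0.54 in the controls and -0.14, -0.18 and -0.28 with C3a. The groups overlapped by one array, since control replicate 1 lay just above C3a replicate 3. The means were -0.42 ± 0.14 and -0.20 ± 0.075 (SD, n = 3), a difference of 0.22 (-0.04 to 0.47) or 1.16-fold (0.974 to 1.39). The unadjusted limma p was 0.0844 and the adjusted p 0.745. Without control replicate 1 the difference was 0.29, with an unadjusted limma p of 0.0492 and an adjusted p of 0.676. Without control replicate 3 it was 0.15.

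The spots of the brighter Socs3 probe give the technical spread within an array. Their SD was 0.16 on control replicate 1, over 10 spots from -0.46 to 0.02. On control replicates 2 and 3 it was 0.074 and 0.049, over 9 unflagged spots each. On the C3a arrays it was 0.11, 0.10 and 0.093. Control replicate 1, the array with the raised background, thus had both the widest spots and the highest control mean of this probe.

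The dimmer Socs3 probe, designed against the curated transcript and printed once, read -2.41, -2.64 and -2.20 in the controls and -1.77, -1.90 and -1.87 with C3a. All 3 C3a arrays lay above all 3 controls, as at 7.98% of kept probes. The means were -2.41 ± 0.22 and -1.85 ± 0.066 (SD, n = 3), and the difference was 0.57 (0.26 to 0.88) or 1.48-fold (1.20 to 1.83). Its unadjusted limma p was 0.00328, rank 79 of 23438 kept probes, and its adjusted p 0.745. The reading on control replicate 1 was not well above background, so the probe passed the filter only through the C3a group, where it read higher. Its p and rank are therefore no independent support for a change. Without control replicate 1 the difference was 0.57 with an unadjusted limma p of 0.00851. Unlike the brighter probe it stayed above 0 when arrays were not normalized (0.24) or were scaled to spike-in RNA (0.12), with unadjusted limma p-values of 0.321 and 0.749. With normexp background correction the dimmer-probe difference was 0.27 and its unadjusted p 0.103. As scanned, its intensities were 51.4, 59.0 and 58.8 in the controls and 67.4, 77.2 and 56.7 with C3a, so the unscaled groups overlapped. The response at the dimmer probe exceeded that at the brighter one by 0.35. The gap between the probes was -2.13, -2.21 and -1.65 in the controls and -1.63, -1.72 and -1.58 with C3a, and these ranges overlapped. The mean of both Socs3 probes differed by 0.39, with an unadjusted limma p of 0.0054 and an adjusted p of 0.745. That mean includes the dimmer probe, which passed the filter only through the C3a group, so its p is no independent support either.

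**Figure D3:**
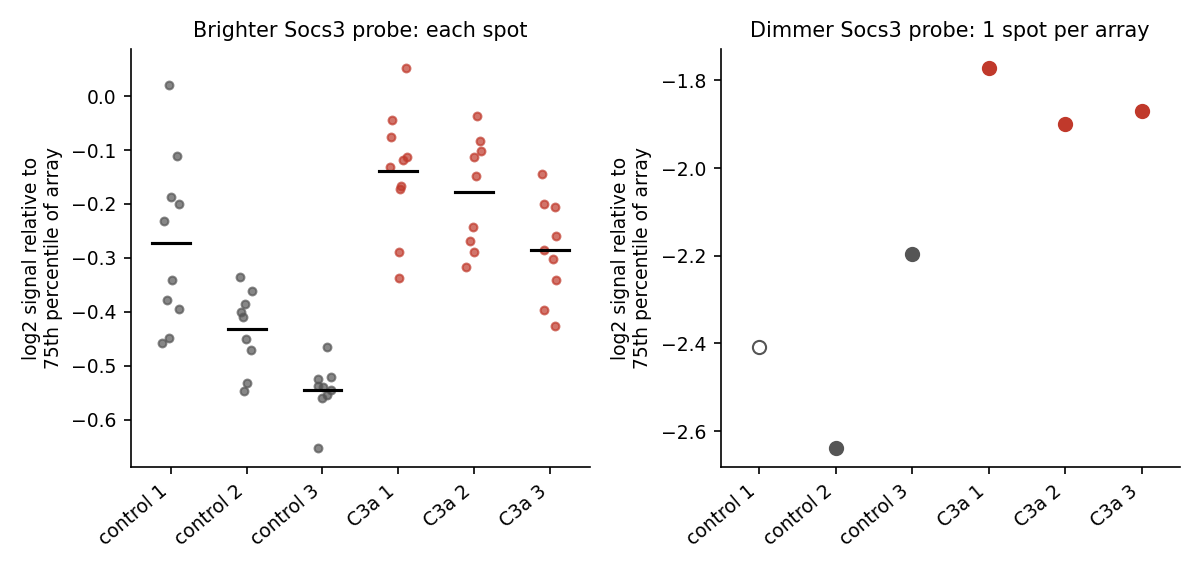
Log2 signal relative to the 75th percentile for the pair of Socs3 probes on each array. Left, each unflagged spot of the brighter probe with the array mean as a line. Right, the single spot of the dimmer probe, hollow where it was not well above background. The C3a arrays lie above the controls at the dimmer probe, and at the brighter probe except for the overlap of control replicate 1 with C3a replicate 3. Without normalization between arrays the mean difference of the brighter probe turns negative (-0.11).

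Cish, the founding member of the SOCS family and a textbook STAT5 target, read -2.28, -2.18 and -2.25 in the controls and -2.11, -1.94 and -2.20 with C3a. C3a replicate 3 lay between control replicates 2 and 3, so the groups overlapped, and the reading on control replicate 1 was not well above background. The difference was 0.15 (-0.09 to 0.40), with a limma adjusted p of 0.745. The pairs of equal number differed by 0.18, 0.23 and 0.05, and without C3a replicate 2 the Cish difference was 0.08.

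Socs1, which blocks JAK kinase activity and restrains interferon signalling, gave scanned intensities of 16.3, 10.4 and 21.1 in the controls and 9.64, 6.35 and 8.37 with C3a. Control replicate 3 alone was well above background. No fold change is given for Socs1, because both groups were at or near background.

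The regions before the starts of the 9 genes were read from RefSeq (GRCr8), as the 250 bases before each start, and all 9 were found. They were searched on both strands for the STAT motif TTCNNNGAA and for GAAA followed, after any 2 bases, by a further GAAA, the core of the element (ISRE) bound by the interferon-activated complex of STAT2 and Irf9. Cish held 4 matches to TTCNNNGAA, beginning 241, 230, 136 and 119 bases before the start. Of 33469 rat promoters of the same length 7.67% held at least 1 match and 2 (0.00598%) held at least 4. Socs1 held 1 match to TTCNNNGAA, 196 bases before its start, and 2 overlapping matches to the ISRE core, at 107 and 101 bases. At least 1 match to the ISRE core was in 3.41% of promoters and at least 2 in 0.206%. None of the windows of the 6 STAT genes or of Socs3 held either motif in these letters. In the gene table the Socs3 gene begins further upstream, so that all 250 bases of its window lie inside the gene, and so do 65 bases of the Stat2, 154 of the Stat3 and 226 of the Stat5b window. For Socs3 no bases before the start of the gene were searched, and for Stat2, Stat3 and Stat5b only the part of the window outside the gene. A match is a string of letters and not a measured binding site. The Cish and Socs1 windows are shown because they carry all the matches among the 9 genes, with the matches in capitals, at chr8:116850719-116850968 for Cish and chr10:5389324-5389573 for Socs1, both on the plus strand.
Cish: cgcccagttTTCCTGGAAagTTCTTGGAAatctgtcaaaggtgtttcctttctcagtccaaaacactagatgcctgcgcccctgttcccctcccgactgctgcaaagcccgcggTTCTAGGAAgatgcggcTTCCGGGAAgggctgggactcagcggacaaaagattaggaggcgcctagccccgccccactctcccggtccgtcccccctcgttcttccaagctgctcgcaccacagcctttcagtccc
Socs1: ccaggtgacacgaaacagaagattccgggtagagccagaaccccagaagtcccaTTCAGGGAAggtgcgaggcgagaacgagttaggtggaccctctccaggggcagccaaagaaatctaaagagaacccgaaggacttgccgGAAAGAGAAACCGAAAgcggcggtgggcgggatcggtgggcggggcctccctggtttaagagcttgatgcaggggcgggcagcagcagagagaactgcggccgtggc

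The rest of the pathway was read from 9 lists of 72 genes, of which 68 had a named probe and 53 a kept one. The lists were written with earlier results of these data known, so their counts are a description and not a test. At an unadjusted limma p of 0.05, 2 of the 53 were higher and 1 lower, against 2.92% and 2.46% of named genes, and none passed the adjusted threshold. The median difference over the 53 genes was 0.06. By value 41 lay higher with C3a and 12 lower, relative to the 75th percentile. Of all named genes with a kept probe 60.5% lay higher. Some of the 53 passed the filter only through the C3a group, and most of these read higher there. The count of higher genes is thus in part set by the filter. The median was -0.26 without normalization between arrays.

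Among the JAK kinases 4 of 4 were kept, with a median difference of -0.00256 (-0.09 without control replicate 1 and 0.06 without control replicate 2), and 1 was lower. This was Tyk2, the kinase of the interferon and interleukin-12 receptors, which read -0.97, -0.85 and -0.87 in the controls and -1.34, -0.99 and -1.26 with C3a. All its C3a arrays lay below all controls, an order found for 4.89% of named genes. The Tyk2 difference was -0.30 (-0.58 to -0.02), with an unadjusted limma p of 0.0403 and an adjusted p of 0.745, and it stayed negative under both other scalings. The unadjusted p was 0.0535 to 0.131 when control replicate 1, 2 or 3 or C3a replicate 1 or 3 was left out. Tyk2 also missed the unadjusted threshold with normexp (-0.18, p 0.0955), a variance trend (0.0566), the methods' t-test (0.0559) and no filter on dim probes (0.0885).

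Of the other SOCS genes 4 of 5 were kept, with a median of 0.12 (0.05 without control replicate 1, and -0.08 over the genes well above background on all 6 arrays), and none passed the unadjusted threshold. Socs6, which acts on receptor tyrosine kinases, read 1.03, 1.45 and 1.05 in the controls and 0.87, 0.84 and 0.96 with C3a, again without overlap. All C3a arrays lay below all controls for 4.89% of named genes with a kept probe and for 2 of the 53 pathway genes. The Socs6 difference was -0.29 (-0.61 to 0.03, limma adjusted p 0.745) and fell to -0.15 without control replicate 2, the array that read highest. PIAS proteins, which restrain STATs in the nucleus, had 3 of 4 kept and a median of 0.02. Phosphatases and adaptors that switch the pathway off had 4 of 6 kept and a median of 0.06, and nuclear partners of STATs 3 of 5 and 0.02. No gene of these 3 lists passed the unadjusted threshold. Leaving out 1 array took the PIAS median to between -0.00303 and 0.05, that of the phosphatases to between 0.00873 and 0.12, and that of the nuclear partners to between -0.02 and 0.06.

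Known STAT3 target genes had 16 of 20 kept, 1 higher and none lower, with a median of 0.10 and differences from -0.25 to 0.66. The median was 0.00916 without control replicate 2. With the replicate block a further gene, Pim1, was higher (0.66, unadjusted limma p 0.00762 with the block and 0.0943 without it). Pim1 encodes a survival kinase and was named here after its values were seen. It was well above background on 2 control and 3 C3a arrays. Pim1 thus passed the filter only through the C3a group, where it read higher. Its p-values are therefore no independent support for a change. The gene that was higher in both fits was Bcl2l1, which encodes the survival protein Bcl-xL. It read -2.54, -2.60 and -2.53 in the controls and -2.13, -2.28 and -1.80 with C3a, a difference of 0.48 (0.16 to 0.81) with an unadjusted limma p of 0.00948 and an adjusted p of 0.745. Known STAT5 target genes had 5 of 6 kept and a median of 0.09 (0.18 without C3a replicate 2), and 1 was higher. It was Cebpa, a transcription factor of fat and myeloid cells, which read -2.60, -2.84 and -2.81 in the controls and -2.12, -2.33 and -2.40 with C3a. The Cebpa difference was 0.47 (0.19 to 0.75), with an unadjusted limma p of 0.00561 and an adjusted p of 0.745. The paper had already named Cebpa among genes enriched with C3a in cultured cardiomyocytes. Its call on this list is therefore no independent support. Neither Bcl2l1 nor Cebpa was well above background on control replicate 1, so both passed the filter only through the C3a group, where they read higher. Where all 6 arrays had to be well above background, 0 pathway genes were higher. Bcl2l1 and Cebpa stayed above 0 under the other scalings, at 0.16 and 0.14 without normalization between arrays, with unadjusted limma p-values of 0.512 and 0.565. With spike-in scaling they were 0.04 and 0.02, with unadjusted p-values of 0.924 and 0.959. With normexp Cebpa was 0.30.

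Known STAT6 target genes had 3 of 7 kept, with a median of -0.06 and none past the unadjusted threshold. The median was -0.21 without C3a replicate 1 and 0.04 without C3a replicate 3. Il4r, a chain of the interleukin-4 receptor, also named after its values were seen, was lower with the replicate block (-0.39, unadjusted limma p 0.0356 with the block and 0.121 without it) and lay lower in all 3 pairs. Of the STAT2 and interferon target genes 11 of 15 were kept, with a median of 0.09 (0.05 without C3a replicate 1 and 0.15 without C3a replicate 3) and none past it. Mx2, an interferon-induced GTPase, had all 3 C3a arrays (5.93, 6.03 and 5.92) above all controls (5.83, 5.70 and 5.88). This order was found for 8.09% of named genes with a kept probe and for 3 of the 53 pathway genes. The Mx2 difference was 0.16 (-0.07 to 0.39, limma adjusted p 0.745), and it was -0.17 without normalization between arrays.

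**Figure D4:**
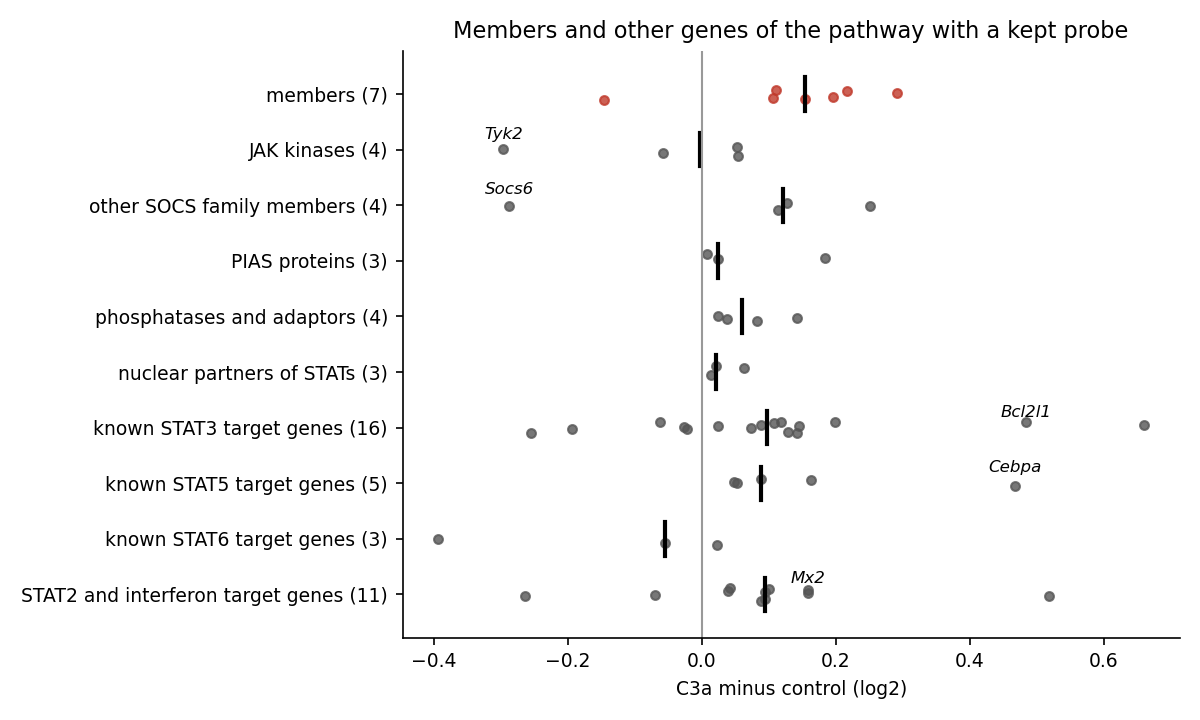
C3a minus control (log2, relative to the 75th percentile) for the 7 genes with a kept probe (top, "members") and for the kept genes of the 9 pathway lists, with 1 point per gene and the list median as a black bar. The number of kept genes stands in brackets. The medians lie between -0.06 and 0.15, and all of them are below 0 without normalization between arrays or with spike-in scaling.

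The genes most like Stat3, Socs3 and Cish over the 6 arrays were found among the other 10389 named genes with a kept probe, as a description of 6 arrays that share their scaling. Stat3 was followed most closely by Phactr1 (Pearson's r 0.994), RT1-A2 (0.991) and Grm4 (0.991), and 200 genes had an r over 0.9. Socs3 at its brighter probe was followed by Ulk1 (0.992), Mettl27 (0.986) and Btg1 (0.983), with 86 genes over 0.9. Cish was followed by Wdr91 (0.960), Ddx55 (0.954) and A3galt2 (0.953), with 21 genes over 0.9.

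**Figure D5:**
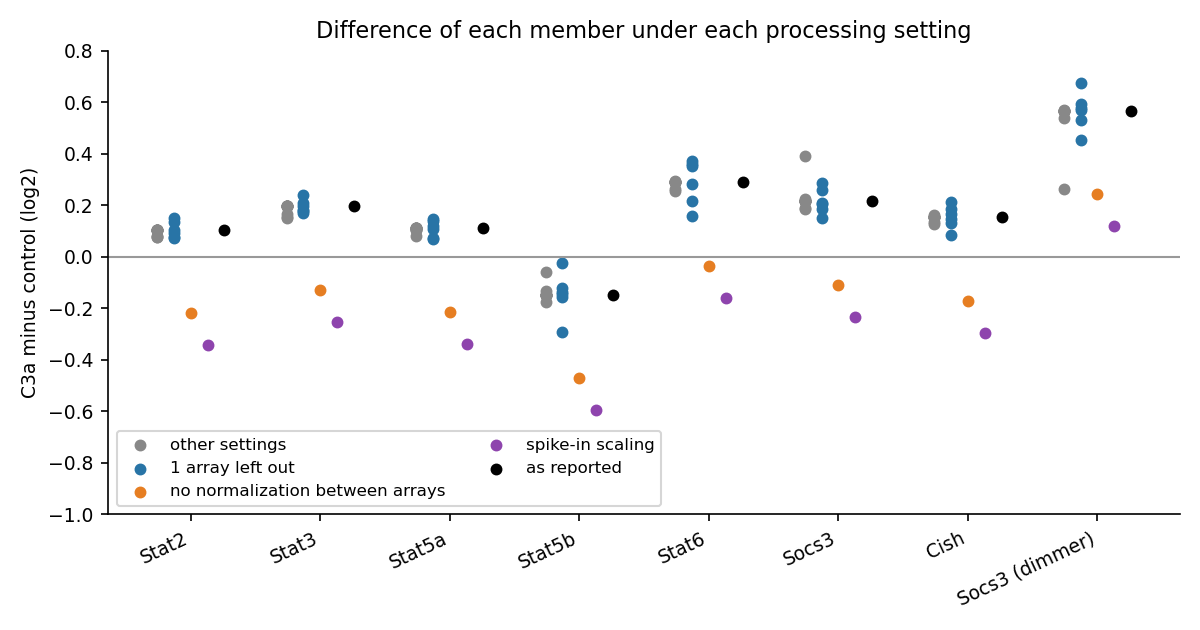
C3a minus control (log2) of the 7 genes with a kept probe and of the dimmer Socs3 probe, with 1 point for each way of processing the arrays. Black is the value as reported, blue leaves out 1 array, orange is without normalization between arrays and purple uses the spike-in RNA as the scale. Stat2, Stat3, Stat5a, Stat6, the brighter Socs3 probe and Cish lie above 0 except under orange and purple, Stat5b lies below 0 throughout, and the dimmer Socs3 probe lies above 0 throughout. Orange and purple lower every difference alike, so they could not lift Stat5b above 0.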

How the data were processed

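Total RNA from 3 control and 3 C3a cultures was labelled with Cy3 and hybridised to 1-colour Agilent arrays. The authors deposited the processed intensity of each of 62976 spots, background-subtracted by Agilent Feature Extraction 11.5.1.1 per the labels, on a linear scale and not normalized between arrays. They also deposited a log2 table of 36638 probes, which equals each array's log2 intensities minus their 75th percentile to within 0.00579 at the median. The 4259 control spots and outlier spots were left out, log2 intensities of one probe were averaged, and the 75th percentile of the array was subtracted. A probe was well above background where at least a share of 0.5 of its spots were. Of 45598 probes, 23438 were kept, being well above background on all 3 arrays of a group. Gene names came from the GRCr8 gene table by accession, for 21109 probes (46.3%). Other probes stay unnamed, and coordinates of the array design are not printed.

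Groups were compared with the moderated two-sided test of limma 3.58.1 (R 4.3.3, lmFit, eBayes), with Benjamini-Hochberg adjustment over all kept probes. The procedure was checked on simulated arrays. At an adjusted p under 0.05 it recovered 2 of 50 changes of log2 0.5, 32 of 50 of log2 1 and 46 of 50 of log2 2. It made 7 false calls. Most changes of log2 0.5 were thus missed. Deviations from the group mean correlated at 0.28, 0.32 and 0.31 between control and C3a arrays of equal replicate number in the labels, and a fit with that number as a block was an alternative. The other alternatives were background correction, normalization, filters, a variance trend, the deposited table, the methods' t-test, the mean of a gene's probes, and leaving out each array. Named were all 9 genes, any gene of the pathway lists with an unadjusted p under 0.05 or groups that did not overlap, and the 3 genes most like Stat3, Socs3 and Cish. The genes and lists were chosen with earlier results of these data known. The number of arrays limits the precision. Figures were drawn with matplotlib 3.10.9.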

Additional observations from a re-analysis of the deposited data

How the results depend on the processing

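Of 230 values of the 7 genes, the dimmer Socs3 probe and the 5 named pathway genes over the settings, 216 kept their direction, 14 turned and none reached an adjusted p of 0.05. The 14 came from dropping normalization between arrays or scaling to the spike-in RNA. Without normalization between arrays Stat2 was -0.22, Stat3 -0.13, Stat5a -0.21, Stat6 -0.034, Socs3 -0.11, Cish -0.17 and Mx2 -0.17. With scaling to 7 spike-in probes they were -0.34, -0.25, -0.34, -0.16, -0.23, -0.29 and -0.29. The median over the 7 genes was then -0.17 and -0.29, and over the pathway lists -0.26 and -0.39, with 0 pathway genes higher in both and 5 and 3 lower. Probes at an adjusted p under 0.05 were 0 higher and 4 lower without normalization and 1 and 15 with spike-ins, and at an unadjusted p 41 and 2556, and 9 and 1700. These settings shift every probe alike, so differences relative to the median of all probes do not move.

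With the replicate block, 1816 probes were higher and 1371 lower at an unadjusted p, 1 of the 7 genes (Stat6) was higher, and 3 pathway genes were higher and 2 lower. The pathway counts are of 53 genes, where 5.78% of all named genes were higher and 6.06% lower with the block. Adjusted p-values of the 7 genes were 0.301 to 0.645 with the block, and it changed no adjusted call. Beside Stat6 it changed the unadjusted call of Pim1 and Il4r among the pathway genes. One of the 7 genes was also higher with a variance trend and with the methods' t-test (Stat3, 1 gene in each) and with the mean of a gene's probes (Socs3, 1 gene). The Socs3 mean includes the dimmer probe, which passed the filter only through the C3a group. The lower probes numbered 350 with normexp and 363 with the methods' t-test, which called 0 pathway genes lower. The higher and lower probes numbered 357 and 680 with no filter, with 0 pathway genes lower, and 367 and 645 where all 6 arrays had to be well above background, with 0 pathway genes higher. They were 699 and 808 with a variance trend, 567 and 726 with the percentile over detected probes, and 846 and 868 without C3a replicate 2, so that the balance of 786 higher and 587 lower turned in each of these 5 settings. The cause of these moves was not tested.

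Leaving out 1 array gave 439 to 1262 higher and 275 to 883 lower probes at an unadjusted p and 0 to 0 at the adjusted one. Of the 7 genes 0 to 1 were higher and 0 to 1 lower (Socs3 and Stat5b, without control replicate 1), and their median was 0.15 to 0.20. Pathway genes were 2 to 4 higher and 0 to 3 lower, with a median of 0.03 to 0.08. Dim signal limits Stat4, Socs1, Stat6, Cish and the dimmer Socs3 probe, which were not well above background on 1 or more arrays. The same holds for Bcl2l1, Cebpa, Pim1 and Il2rb.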
